A study of Mus musculus with 4 samples.

Results

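The 31 genes described here carry glucose into the cell, turn it into pyruvate and lactate, and sense or answer low oxygen. They were taken by gene symbol from a table of 55401 genes measured in mouse CD8+ T cells. Because 2 Ensembl identifiers share the symbol Aldoa, the 31 symbols correspond to 32 entries of the table. By role, 2 genes carry glucose, 10 belong to upper glycolysis, 6 to lower glycolysis, 6 to the handling of lactate and pyruvate, 4 to the control of HIF-1, and 3 are other targets of HIF-1.

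The cells were P14 CD8+ T cells, whose transgenic receptor recognises a peptide of lymphocytic choriomeningitis virus (LCMV). They were transduced with a vector for overexpression of Hic1, a zinc finger transcriptional repressor, or with an empty vector, and sorted from the spleen of mice infected with LCMV-Armstrong. Each group had 2 libraries, made from small numbers of sorted and re-sorted cells by a Smart-seq2 protocol on polyA RNA. The sample labels put collection at day 32 after infection and the series text at day 7, so the stage of the response is uncertain. All 4 libraries share the P14 receptor, the transduction, the infection and the spleen. The sources used here do not give the strain, age or sex of the mice, or say whether the libraries of a group came from separate mice. The p-values measure only the spread between these libraries.

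Glycolysis splits a glucose molecule into pyruvate with a small gain of ATP, and lactate dehydrogenase regenerates the NAD+ that the pathway needs by turning pyruvate into lactate. Effector T cells are known for high glycolysis, and resting and memory T cells rely more on mitochondrial respiration. HIF-1, a dimer of HIF-1alpha (from Hif1a) and ARNT, induces many of these genes when oxygen is low. When oxygen is present, prolyl hydroxylases of the EGLN family mark HIF-1alpha for degradation by the VHL ubiquitin ligase.

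The libraries held 7501285 and 8839317 counts with the Hic1 vector, and 4017346 and 3941364 counts with the empty vector. Hic1 had 314 and 161 counts with the Hic1 vector, against 3 and 5 counts with the empty vector (log2 fold change 4.58 ± 0.538 SE, edgeR quasi-likelihood adjusted p = 0.00706). It passed the count filter for testing only through the group where it is high. The call on Hic1 held in 15 of 17 alternatives, and did not hold without empty vector replicate 1 (log2 4.34, adjusted p = 0.108) or with limma voom (log2 4.68, adjusted p = 0.0784). Xist had 3590 and 3 counts with the Hic1 vector and 1885 and 0 counts with the empty vector, so the libraries numbered 1 carried this X-inactivation RNA and those numbered 2 were near or at 0. Transcripts of a Y-linked gene, Eif2s3y, had 0 and 951 counts with the Hic1 vector and 0 and 396 counts with the empty vector. This split falls equally in both groups, so by these transcripts the libraries of a group came from animals of different sex, and the spread within a group includes that difference. A single ribosomal RNA gene took 13.4 and 8.35% of the counts with the Hic1 vector and 5.16 and 8.38% with the empty vector. The 8 CD8 T cell markers summed to 6138 and 6862 CPM (counts scaled to a common library size) with the Hic1 vector and to 5654 and 5796 CPM with the empty vector, all 8 being detected.

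Several of these genes carry, just upstream of their start, the core letters of the HIF response element, ACGTG, which are also part of the E-box CACGTG that Myc binds. The windows shown are the 250 bases upstream of a RefSeq transcription start (GRCm38.p6), read 5′ to 3′ on the strand of the gene, with each ACGTG, and its reverse complement CACGT, in capitals; CACGTG holds a match on both strands. The first 4 are shown because they belong to genes that HIF-1 is known to induce. Pgam1 is shown for the highest fold change among the 28 genes tested, and Gpi1, with no match, for the lowest p-value.
Ldha (chr7:46845554-46845803, + strand): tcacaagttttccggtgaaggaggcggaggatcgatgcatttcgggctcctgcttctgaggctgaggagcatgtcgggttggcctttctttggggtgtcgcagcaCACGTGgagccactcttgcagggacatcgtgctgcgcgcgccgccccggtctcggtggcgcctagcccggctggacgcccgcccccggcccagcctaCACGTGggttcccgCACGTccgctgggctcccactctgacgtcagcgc
Pgk1 (chrX:106186850-106187099, + strand): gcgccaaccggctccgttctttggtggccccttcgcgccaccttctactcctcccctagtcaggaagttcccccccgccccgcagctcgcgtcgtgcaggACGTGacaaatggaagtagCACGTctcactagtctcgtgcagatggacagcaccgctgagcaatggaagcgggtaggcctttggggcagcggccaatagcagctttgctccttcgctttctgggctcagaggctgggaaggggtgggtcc
Hk2 (chr6:82774455-82774704, - strand): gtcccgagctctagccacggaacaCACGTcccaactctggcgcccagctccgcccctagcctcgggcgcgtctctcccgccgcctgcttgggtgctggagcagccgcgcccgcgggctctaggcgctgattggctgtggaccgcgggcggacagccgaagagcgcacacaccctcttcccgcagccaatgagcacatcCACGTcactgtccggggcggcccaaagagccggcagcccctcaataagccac
Egln3 (chr12:54203875-54204124, - strand): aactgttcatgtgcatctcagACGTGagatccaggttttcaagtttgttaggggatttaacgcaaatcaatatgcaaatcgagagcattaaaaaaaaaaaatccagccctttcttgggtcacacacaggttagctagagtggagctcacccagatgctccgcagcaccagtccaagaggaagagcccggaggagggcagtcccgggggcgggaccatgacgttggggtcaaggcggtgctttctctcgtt
Pgam1 (chr19:41911621-41911870, + strand): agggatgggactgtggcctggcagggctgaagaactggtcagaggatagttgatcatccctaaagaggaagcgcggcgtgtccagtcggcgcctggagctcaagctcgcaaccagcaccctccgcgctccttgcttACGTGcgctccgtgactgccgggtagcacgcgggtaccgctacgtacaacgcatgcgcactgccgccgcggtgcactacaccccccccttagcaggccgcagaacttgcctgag
Gpi1 (chr7:34230337-34230586, - strand): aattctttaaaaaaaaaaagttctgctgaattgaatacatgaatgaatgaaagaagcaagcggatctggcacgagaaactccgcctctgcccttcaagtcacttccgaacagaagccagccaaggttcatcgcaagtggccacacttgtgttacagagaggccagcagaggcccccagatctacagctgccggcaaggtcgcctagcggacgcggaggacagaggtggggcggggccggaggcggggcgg

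The Ldha window shown held 5 matches, counting both strands, while a second Ldha window, at chr7:46846832-46847081, held 0. The windows of Pgk1 and Hk2 held 2 each, and those of Egln3 and Pgam1 held 1 each. Of the 29 genes with an entry in the promoter table, with 42 windows in all, 17 (58.6%) had a match in at least 1 window, against 25.8% of the 8467 tested genes and 18.5% of the 27025 genes of the table that had an entry. Hif1a itself had 3 matches in its window. The genes were chosen in part as known targets of HIF-1, so this share describes the choice, and a match is not a bound site. Slc2a3 and Bnip3l had no entry in the table and are named only.

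Of the 31, 28 had enough counts to be tested and Ldhb, Egln3 and Bnip3 did not. Of the 28, 0 were called by edgeR at an adjusted p below 0.05, and 0 were called by DESeq2 and 0 by limma voom. DESeq2 gave no adjusted p for Pfkm, Aldoc and Eno3, so it could not call them. With no count filter, or with the replicate number as a block, edgeR called 1, Gpi1. At an unadjusted p below 0.05, 5 of the 28 (17.9%) passed, all higher with the Hic1 vector: Gpi1, Pgam1, Pkm, Eno1 and Ldha. Over all genes tested, 19.1% (2232 of 11676) passed in either direction, 1099 of them higher with the Hic1 vector. At the adjusted threshold, 1.82% of all genes tested (213) were called. Without empty vector replicate 1 the 213 calls over all genes became 8. The median log2 fold change of the 28 was 0.14, with a range of -0.87 to 0.81, beside a median of 0.01 over all genes tested. In 19 of the 28 (67.9%) the log2 fold change was above 0 and in 9 below, against 50.9% above 0 over all genes tested.

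**Figure D1:**
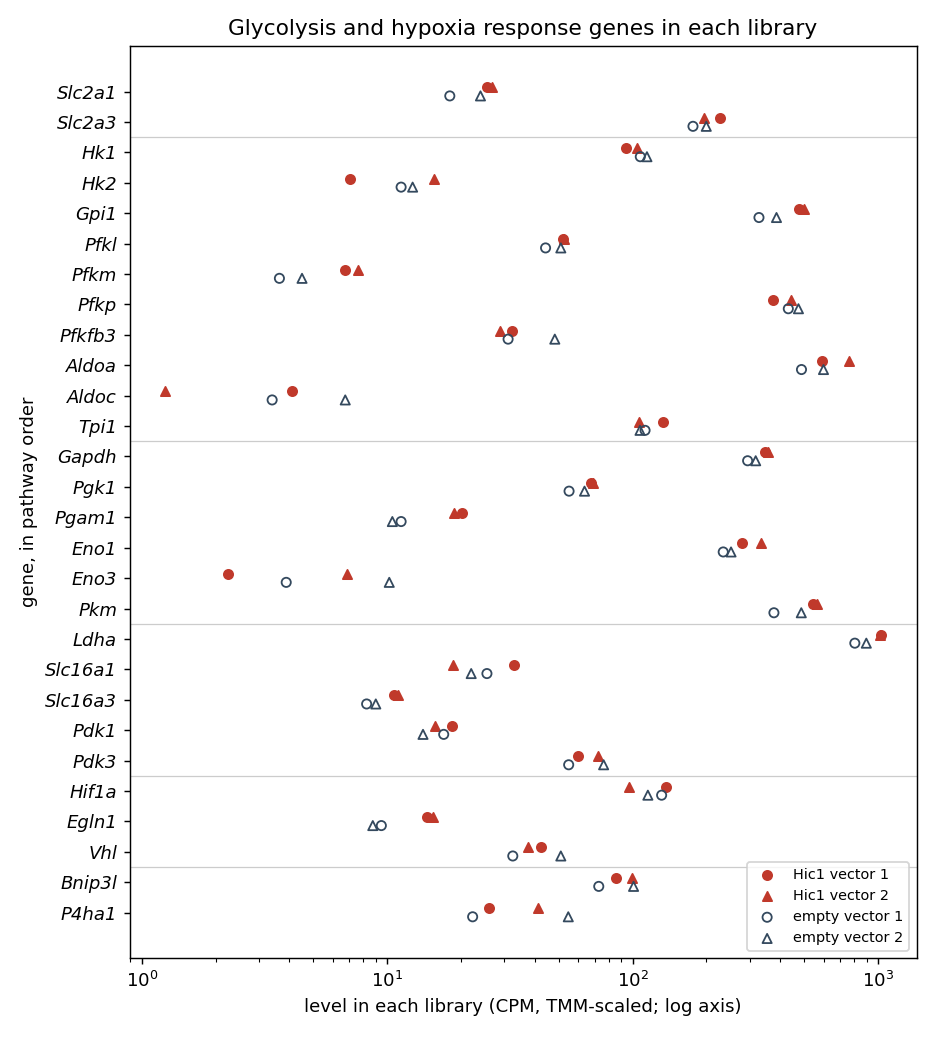
Level of each tested gene in each library, in CPM on a log axis, in pathway order, with filled red points for the Hic1 vector and open points for the empty vector, and circles for number 1 and triangles for number 2. The groups overlap for 15 of the 28 genes.

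The summed counts of the 31 genes took 0.449 and 0.498% of all counts with the Hic1 vector and 0.401 and 0.459% with the empty vector, which overlap. By mean level per kilobase, Ldha was above 98.8% of tested genes, Aldoa above 98.2%, Pkm above 95.7% and Gapdh above 94.6%, while Hk2, Pfkm and Aldoc were above only 22.4, 19.5 and 13.7%.

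Levels were also read by whether the groups overlap. In 12 of the 28 genes (42.9%) both Hic1 vector libraries were above both empty vector libraries, against 26.5% of all genes tested, and in 1 (3.57%), Hk1, both were below, against 24.9%. The remaining 15 overlapped. The 95% intervals of the fold change lay within a 2-fold difference in either direction for 21 of the 28 and reached past it for 7. They lay wholly above 0 for 5, the same 5 that passed the unadjusted threshold, and wholly below 0 for 0 of the genes. Within libraries of the same number, the difference was above 0 in both pairs for 14 genes, below 0 in both for 3, and opposite for 11, with medians of 0.25 (number 1) and 0.08 (number 2) on the log2 scale. The matching shares over all genes are not given here.

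The 2 glucose transporters were both expressed. Slc2a3 encodes GLUT3, a high-affinity transporter of lymphocytes and neurons, and had 227 and 196 CPM with the Hic1 vector and 176 and 199.6 CPM with the empty vector, with the groups overlapping. Slc2a1 encodes GLUT1, the widely expressed transporter that activated T cells induce, and had 25.5 and 26.7 CPM with the Hic1 vector, against 18 and 24 CPM with the empty vector, without overlap. Its log2 fold change was 0.31 ± 0.263 SE (95% interval -0.26 to 0.88, adjusted p = 0.565). Per kilobase of exon, Slc2a3 was at 31.4 and 27.1 CPM per kb with the Hic1 vector and 24.3 and 27.6 CPM per kb with the empty vector. Slc2a1 was at 7.27 and 7.61 CPM per kb with the Hic1 vector and 5.12 and 6.84 CPM per kb with the empty vector.

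Among the genes of upper glycolysis, which carry glucose to the triose phosphates, 5 were above 0 and 5 below, with a median log2 fold change of 0.02. Gpi1 (chr7:34201330-34230336, mm10, - strand), glucose-6-phosphate isomerase, had 474 and 500.5 CPM with the Hic1 vector and 327 and 386 CPM with the empty vector. Both Hic1 vector libraries were above both empty vector libraries. The fold change was 1.37, or log2 0.45 ± 0.135 SE (95% interval 0.16 to 0.75), with an unadjusted p of 0.00601 and an edgeR adjusted p of 0.105. Within the numbers, which also separate the libraries by Xist, the log2 differences were 0.53 and 0.38. Gpi1 was called in 2 of 17 alternatives, with no count filter (adjusted p = 0.0207) and with the replicate number as a block (adjusted p = 0.0341), and was not called with the block and GC correction together (adjusted p = 0.0603).

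Aldoa, the aldolase of muscle and most tissues, had 590.3 and 759 CPM with the Hic1 vector and 488 and 599 CPM with the empty vector, where the second empty vector library lay above the first Hic1 vector library (log2 0.31 ± 0.155 SE, 95% interval -0.03 to 0.65, adjusted p = 0.304).

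Hk1, the hexokinase of most tissues, had 93.6 and 105 CPM with the Hic1 vector, against 108 and 114 CPM with the empty vector, the only gene of the 28 whose Hic1 vector libraries both lay below. Its log2 fold change was -0.16 ± 0.154 SE (95% interval -0.50 to 0.17, adjusted p = 0.618). Hk2, the inducible hexokinase, had 7.04 and 15.5 CPM with the Hic1 vector and 11.4 and 12.7 CPM with the empty vector, so the first Hic1 vector library was the lowest and the second the highest of the 4. Aldoc and Pfkm, both at low levels, had wide 95% intervals, of -2.21 to 0.48 and -0.17 to 1.72 on the log2 scale. Aldoc, the brain aldolase, had 4.08 and 1.25 CPM with the Hic1 vector and 3.40 and 6.75 CPM with the empty vector.

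Phosphofructokinase, the main control point of the pathway, was mostly Pfkp, the platelet-type subunit, at 372 and 441 CPM with the Hic1 vector and 431 and 474 CPM with the empty vector (log2 -0.15 ± 0.137 SE, adjusted p = 0.587). Pfkl, the liver-type subunit, had 52.2 and 52.4 CPM with the Hic1 vector and 44.2 and 51.0 CPM with the empty vector, without overlap (log2 0.14 ± 0.195 SE). Pfkm, the muscle-type subunit, had 6.76 and 7.63 CPM with the Hic1 vector and 3.64 and 4.50 CPM with the empty vector, without overlap (log2 0.78 ± 0.434 SE, adjusted p = 0.362). Its counts are small, at 148 over the 4 libraries, and 18 bases of its exons overlap Senp1 on the other strand, which had 1134 counts. Gm26513, on the same strand, shares 341 exon bases with Pfkm and had 11 counts. Whether counting used strand is not stated. Pfkfb3, which makes the activator of phosphofructokinase, had 32.2 and 28.9 CPM with the Hic1 vector and 31.1 and 48.2 CPM with the empty vector, where the second empty vector library stood above the others (log2 -0.37 ± 0.252 SE, 95% interval -0.92 to 0.18). Tpi1, triosephosphate isomerase, had 134 and 106 CPM with the Hic1 vector and 112 and 107 CPM with the empty vector, with overlap (log2 0.13 ± 0.163 SE).

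**Figure D2:**
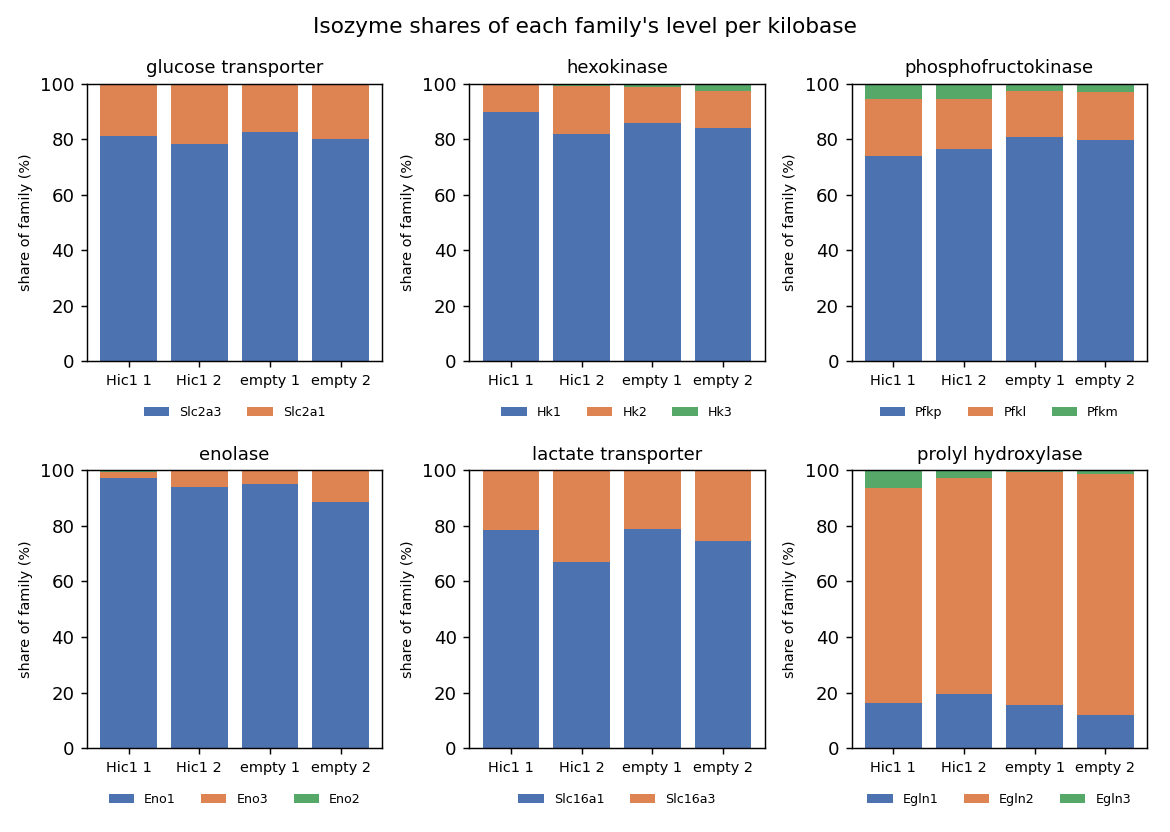
Share of each enzyme or transporter family held by its isozymes, in percent of the family's summed level per kilobase, for the 2 Hic1 vector libraries (Hic1 1 and 2) and the 2 empty vector libraries (empty 1 and 2). Pfkp holds 73.8 and 76.4% of the phosphofructokinase level with the Hic1 vector and 80.7 and 79.7% with the empty vector.

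Within each family, 1 isozyme held most of the transcript level per kilobase. Lengths were the union of a gene's annotated exons, such as 7779 bases for Pdk1 and 2561 bases for Pdk3, so the shares depend on the annotation. Hk1 held 89.7 and 81.8% of the hexokinases with the Hic1 vector and 85.7 and 84.1% with the empty vector, and Aldoa held 98.9% or more of the aldolases in each library. Pfkm held 5.38 and 5.31% of phosphofructokinase with the Hic1 vector and 2.73 and 3.04% with the empty vector, and Pfkl held 20.8 and 18.2% with the Hic1 vector and 16.6 and 17.2% with the empty vector. These phosphofructokinase shares did not overlap between the groups. They are parts of a whole and not separate observations, and the Pfkp level itself overlapped. Over all genes tested, levels did not overlap for 26.5% (higher with the Hic1 vector) and 24.9% (lower).

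In lower glycolysis, from glyceraldehyde 3-phosphate to pyruvate, 5 of 6 genes were above 0, the same number had both Hic1 vector libraries above both empty vector libraries, and 3 passed the unadjusted threshold. Over all genes tested, 50.9% were above 0, 26.5% had both Hic1 vector libraries above, and 19.1% passed that threshold in either direction. Of the 3, Pgam1 alone still passed once the trend with GC content was removed, as described below. The median log2 fold change of the 6 was 0.27. Pgam1 (chr19:41911923-41918660, mm10, + strand), phosphoglycerate mutase, had 20.1 and 18.7 CPM with the Hic1 vector and 11.4 and 10.5 CPM with the empty vector. The levels were separated by a gap wider than the spread in either group, at 1.75-fold (log2 0.81 ± 0.297 SE, 95% interval 0.16 to 1.46), with an unadjusted p of 0.0191 and an edgeR adjusted p of 0.171. The within-number differences were 0.79 and 0.80 on the log2 scale. Pkm, pyruvate kinase, which makes pyruvate and ATP, had 543 and 564 CPM with the Hic1 vector and 376 and 487 CPM with the empty vector, without overlap (log2 0.36 ± 0.145 SE, adjusted p = 0.206).

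Eno1, the main enolase of most tissues, had 279 and 334 CPM with the Hic1 vector and 234 and 252 CPM with the empty vector (log2 0.34 ± 0.144 SE, adjusted p = 0.232). A protein-coding copy, Eno1b, had 63 and 98 counts with the Hic1 vector and 66 and 79 counts with the empty vector. Annotated pseudogene copies of the 31 genes had at most 58 counts each over the 4 libraries. Gapdh, which makes NADH in this pathway, had 347.5 and 356 CPM with the Hic1 vector and 294 and 317 CPM with the empty vector, and Pgk1, phosphoglycerate kinase, had 67.4 and 69.1 CPM with the Hic1 vector and 55.1 and 63.7 CPM with the empty vector. Neither overlapped, and their log2 fold changes were both 0.20, with standard errors of 0.131 and 0.180. Pgk1 is on the X chromosome, where the libraries numbered 1 and 2 differ in Xist, and its within-number differences were 0.29 and 0.12. Eno3, the muscle enolase, was the exception below 0, at 2.25 and 6.84 CPM with the Hic1 vector and 3.88 and 10.2 CPM with the empty vector, with overlap (95% interval -1.89 to 0.73).

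**Figure D3:**
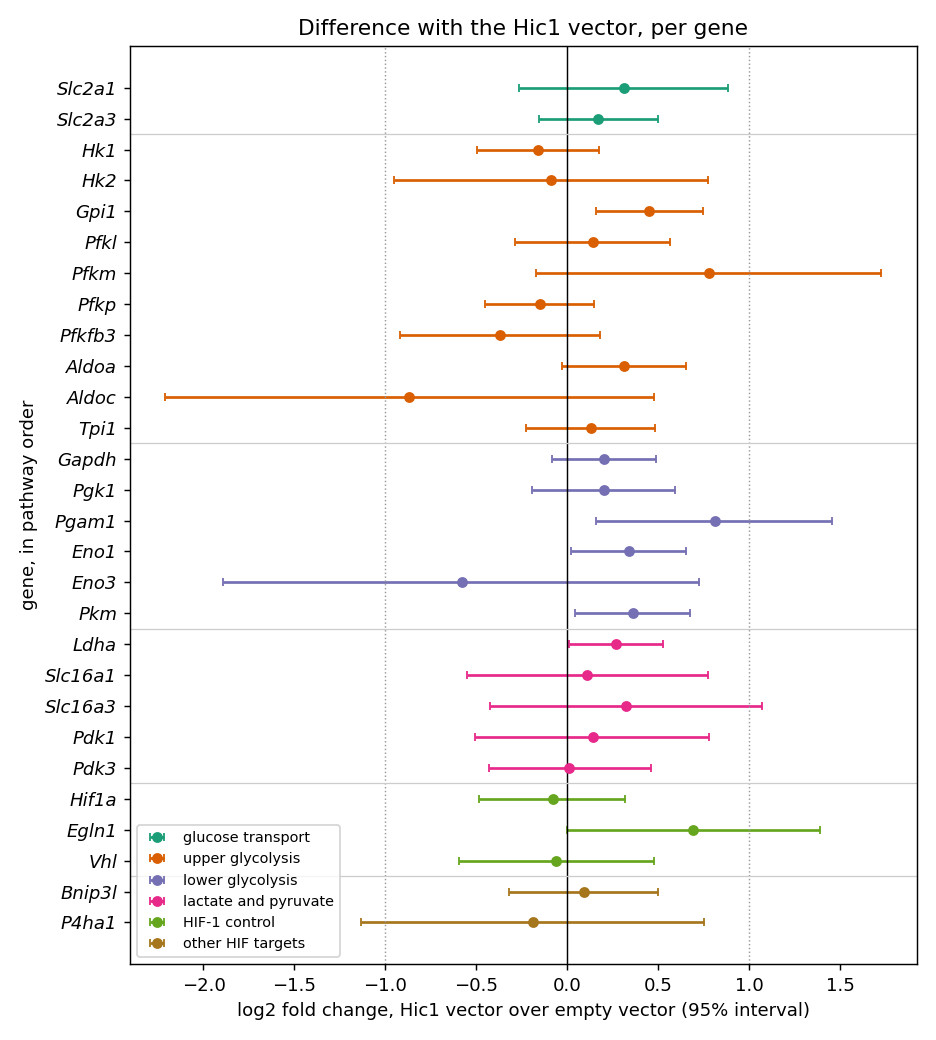
Fitted log2 fold change of each tested gene, Hic1 vector over empty vector, with its 95% interval, in pathway order and coloured by role. The dotted lines mark a 2-fold difference either way. The intervals of Gpi1, Pgam1, Eno1, Pkm and Ldha lie above 0, and none lies below.

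In lactate and pyruvate handling, 5 of 6 genes were tested and all 5 were above 0, against 50.9% of all genes tested. Ldha, the lactate dehydrogenase subunit that favours lactate, had 1026 and 1019 CPM with the Hic1 vector and 804 and 896 CPM with the empty vector, without overlap (log2 0.27 ± 0.119 SE, unadjusted p = 0.0446, edgeR adjusted p = 0.248). At 309.8 and 307.8 CPM per kb with the Hic1 vector and 243 and 271 CPM per kb with the empty vector, Ldha had the highest level per kilobase of the 31 genes. Ldhb, the subunit of heart, had 9 and 10 counts with the Hic1 vector and 0 and 2 counts with the empty vector and was not tested. Its pooled ratio was 4.86, with a 95% exact counting interval of 1.17 to 43.0 that covers counting error only, since PCR reads without molecular identifiers are not independent.

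The lactate transporters had log2 fold changes of 0.11 ± 0.302 SE for Slc16a1 and 0.32 ± 0.342 SE for Slc16a3. Slc16a1 (MCT1), which moves lactate either way, had 32.9 and 18.6 CPM with the Hic1 vector and 25.5 and 22.0 CPM with the empty vector, overlapping. Slc16a3 (MCT4), the low-affinity exporter of glycolytic cells, had 10.7 and 11.1 CPM with the Hic1 vector and 8.25 and 8.99 CPM with the empty vector, without overlap (adjusted p = 0.661). Pdk1 and Pdk3, kinases that switch off pyruvate dehydrogenase and so hold back the oxidation of pyruvate, had log2 fold changes of 0.14 ± 0.295 SE and 0.01 ± 0.204 SE. Pdk1 had 18.4 and 15.7 CPM with the Hic1 vector and 17 and 14 CPM with the empty vector. Pdk3 was the prevailing form, with 60.0 and 72.2 CPM with the Hic1 vector and 54.9 and 76.2 CPM with the empty vector, and 86.6% or more of the kinase level per kilobase in each library. It is X-linked, as Pgk1 is.

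Of the HIF-1 control genes tested, 1 was above 0 and 2 below. Hif1a had 137 and 96.4 CPM with the Hic1 vector and 131 and 115 CPM with the empty vector, and its 95% interval was -0.49 to 0.32. Egln1 encodes PHD2, the main oxygen-sensing hydroxylase, and had 14.5 and 15.4 CPM with the Hic1 vector and 9.47 and 8.74 CPM with the empty vector. Both libraries with the Hic1 vector were higher, at 1.62-fold (log2 0.69 ± 0.319 SE), with an interval that just reached 0 at its lower end and an adjusted p of 0.262. Vhl, the ligase subunit that recognises hydroxylated HIF-1alpha, had 42.5 and 37.6 CPM with the Hic1 vector and 32.5 and 51.0 CPM with the empty vector, with overlap (log2 -0.06 ± 0.245 SE).

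Egln3 encodes PHD3, a hydroxylase that is itself a HIF-1 target, and was below the count filter. It had 30 and 15 counts with the Hic1 vector, against 1 and 3 counts with the empty vector, so the groups did not overlap. Its pooled ratio was 5.75 with a 95% exact counting interval of 2.10 to 22.0, which does not include the spread between libraries. With no count filter, edgeR gave a log2 fold change of 2.03 and an adjusted p of 0.192. Of the prolyl hydroxylase level per kilobase, Egln3 made up 6.39 and 2.91% with the Hic1 vector and 0.533 and 1.36% with the empty vector, and Egln2, which is not among the 31, made up 77.4 and 77.7% with the Hic1 vector and 84.1 and 86.9% with the empty vector. The Egln3 window printed earlier holds 1 match to the core letters.

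The other HIF-1 targets were Bnip3 and Bnip3l, mitophagy receptors, and P4ha1, a collagen prolyl hydroxylase subunit. Bnip3 was near the detection limit, with 7 and 3 counts with the Hic1 vector and 6 and 5 counts with the empty vector (pooled ratio 0.465, 95% exact counting interval 0.177 to 1.21). Bnip3l had 85.6 and 99.2 CPM with the Hic1 vector and 72.8 and 101 CPM with the empty vector, with overlap (95% interval -0.32 to 0.50). P4ha1 varied widely within groups, with 26 and 41.1 CPM with the Hic1 vector and 22.3 and 54.7 CPM with the empty vector (95% interval -1.13 to 0.75). The second Aldoa identifier had 4 and 0 counts with the Hic1 vector and 1 and 3 counts with the empty vector.

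The fold changes were fitted again with their trend along transcript GC content removed. Pkm then had a log2 fold change of 0.13, Eno1 of 0.10 and Aldoa of 0.09, against 0.36, 0.34 and 0.31 without the correction. Gpi1 had 0.37, Pgam1 0.70 and Ldha 0.21, against 0.45, 0.81 and 0.27 without it. Of the 20 genes with GC above the median of all tested genes (49%), 17 moved down, and all 8 below it moved up. Removing a trend along GC shifts genes by their GC, so this count describes the correction and not these genes. The median of the 28 was then 0.11, with 18 above 0. The 3 genes at an unadjusted p below 0.05 were then Gpi1 and Pgam1, higher with the Hic1 vector, and Hk1, lower, at a log2 fold change of -0.38 (adjusted p = 0.26) against -0.16 without the correction.

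**Figure D4:**
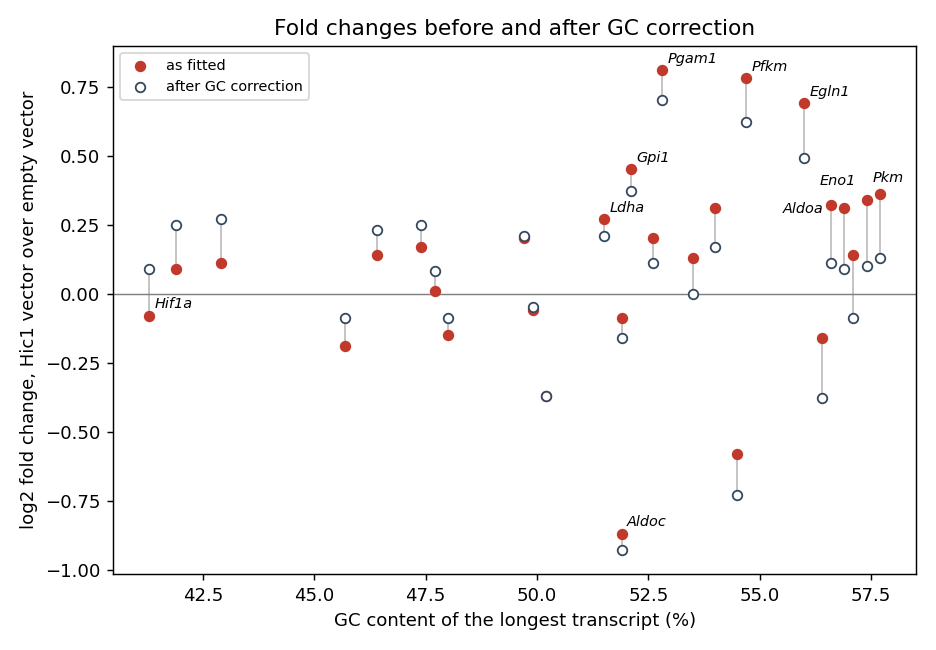
Log2 fold change (Hic1 vector over empty vector) of each tested gene against the GC content of its longest transcript, before (filled) and after (open) removal of the trend with GC. Pkm, Eno1 and Aldoa, at the right, moved toward 0, and Hif1a at the left moved above 0.

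Other genes of the same pathways were counted in lists. In 5 of these lists edgeR called 0 genes, limma voom called 0 and DESeq2 called 1, Bhlhe40. Over the 17 alternatives Bhlhe40 and Anln were each called in 4, Epas1 and Pgd in 3 and Pgls in 2, among the genes named from these lists. Of 28 other glycolytic isozymes, 10 were tested, with 5 above 0, a median of 0.00 and 1 at an unadjusted p below 0.05, Pgm1. Pgm1, a phosphoglucomutase that links glycogen to glycolysis, had 40.4 and 39.9 CPM with the Hic1 vector and 20.4 and 28.2 CPM with the empty vector (log2 0.72 ± 0.242 SE, adjusted p = 0.14). Pgm2 and Slc2a8 had log2 fold changes of 0.38 ± 0.179 SE and 0.70 ± 0.333 SE.

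Of 12 other genes of HIF control, 10 were tested, with 4 above 0, a median of -0.14 and 1 at an unadjusted p below 0.05, Epas1. Epas1, which encodes HIF-2alpha, had 40.1 and 23.2 CPM with the Hic1 vector and 53.6 and 57.0 CPM with the empty vector (log2 -0.80 ± 0.260 SE, adjusted p = 0.131, range over the alternatives 0.0172 to 0.502). Arnt, the partner of HIF-1alpha, and Cul2, the scaffold of the VHL ligase, had log2 fold changes of -0.32 ± 0.194 SE and -0.24 ± 0.194 SE. Of 12 genes of pyruvate dehydrogenase and its regulators, 11 were tested, with 3 above 0, a median of -0.25 and 1 at an unadjusted p below 0.05, Pdp1. Pdp1, the phosphatase that reactivates pyruvate dehydrogenase, had 11.8 and 13.0 CPM with the Hic1 vector and 20.6 and 23.5 CPM with the empty vector (log2 -0.81 ± 0.287 SE, adjusted p = 0.156). Pdpr and Pdp2 had log2 fold changes of -0.46 ± 0.262 SE and -0.37 ± 0.266 SE.

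All 9 genes of the pentose phosphate pathway were tested, with 5 above 0, a median of 0.27 and 4 at an unadjusted p below 0.05, all higher. These 4 are 44.4% of the list, where 19.1% of all genes tested passed in either direction. The pathway draws on the product of hexokinase to make NADPH and ribose. Its lactonase gene Pgls had 124 and 117 CPM with the Hic1 vector and 69.7 and 86.2 CPM with the empty vector (log2 0.63 ± 0.165 SE, adjusted p = 0.0746, range 0.00841 to 0.455). Pgd, which encodes a dehydrogenase of the NADPH-forming arm, had 115 and 101 CPM with the Hic1 vector and 65.5 and 76.4 CPM with the empty vector (log2 0.60 ± 0.167 SE, adjusted p = 0.0863, range 0.0167 to 0.455), and Tkt, transketolase, had a log2 fold change of 0.33 ± 0.131 SE.

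Of 30 other HIF targets, 22 were tested, with 11 above 0, a median of 0.01 and 4 at an unadjusted p below 0.05, of which 3 were higher. Bhlhe40, a transcriptional repressor of the basic helix-loop-helix family, had 439 and 427 CPM with the Hic1 vector and 299.8 and 307.5 CPM with the empty vector (log2 0.51 ± 0.128 SE, edgeR adjusted p = 0.0658). Its adjusted p ranged from 0.00731 to 0.327 over the alternatives. Mif, a cytokine, had 93.3 and 103 CPM with the Hic1 vector and 71.1 and 65.5 CPM with the empty vector (log2 0.52 ± 0.164 SE, adjusted p = 0.118). Anln, a scaffold of cell division, had 29.7 and 18 CPM with the Hic1 vector and 50.7 and 36.7 CPM with the empty vector (log2 -0.87 ± 0.283 SE, adjusted p = 0.131, range 0.0318 to 0.569).

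Of the 22 regulators of glycolysis tested, edgeR called 1, with 12 above 0 and a median of 0.07. At an unadjusted p below 0.05 there were 6, of which 4 were higher and Irf4 and Pik3r1 lower. DESeq2 called 3, Myc, Akt1 and Batf, and limma voom called Myc alone. These 4 other regulators are named after their values were seen. Akt1, a kinase that promotes glucose uptake, had 46.5 and 52.8 CPM with the Hic1 vector and 20.4 and 28.7 CPM with the empty vector (log2 1.01 ± 0.239 SE, edgeR adjusted p = 0.0571). Batf, a transcription factor of effector T cells, had a log2 fold change of 0.72 ± 0.190 SE (edgeR adjusted p = 0.0738). Myc, which activates many glycolytic genes in dividing T cells, had 368 and 370 counts, or 51.8 and 42.2 CPM, with the Hic1 vector, and 71 and 78 counts, or 17.2 and 19.5 CPM, with the empty vector. Myc rose 2.53-fold (log2 1.34 ± 0.239 SE, edgeR quasi-likelihood adjusted p = 0.0238), with differences of 1.56 and 1.09 within the numbers. The call was lost without empty vector replicate 1 (log2 1.26, adjusted p = 0.176) and held in the other 16 of 17 alternatives.

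**Figure D5:**
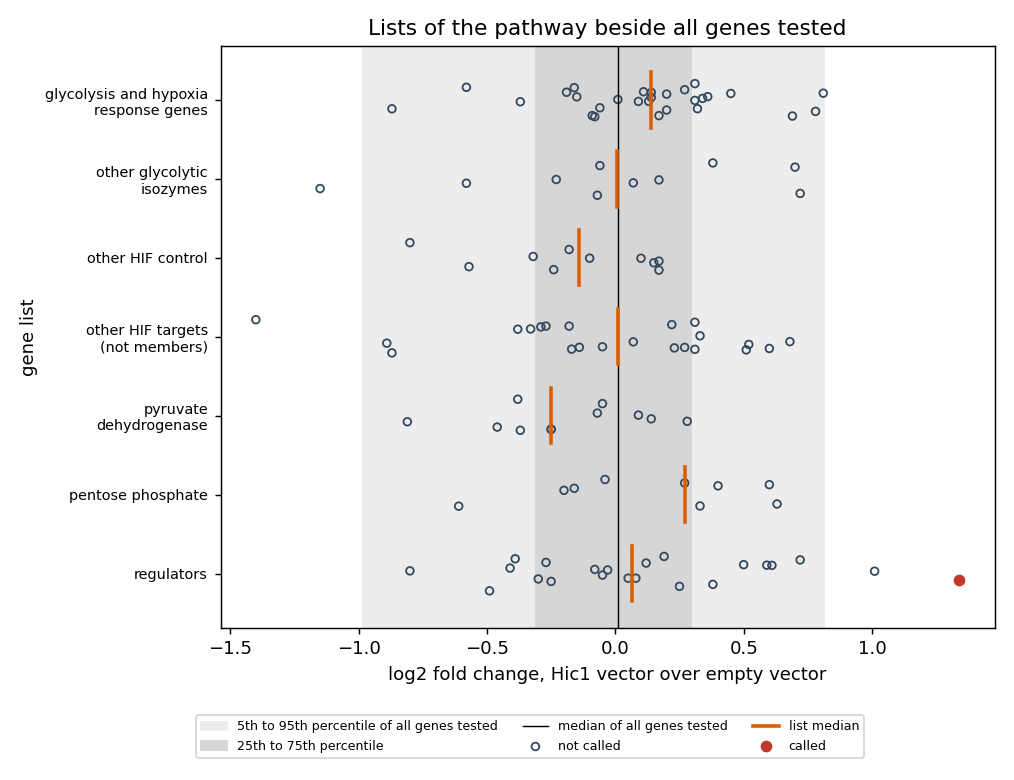
Log2 fold change (Hic1 vector over empty vector) of the tested genes in each list, with the list median as an orange line. Grey bands are the percentiles of all tested genes, and the filled point is Myc, the gene called.

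Markers of other cell types were low beside those of CD8 T cells. B cell markers summed to 42.0 and 16.4 CPM with the Hic1 vector and 18.2 and 4.75 CPM with the empty vector. Myeloid markers summed to 43.4 and 50.5 CPM with the Hic1 vector and 49.3 and 62.7 CPM with the empty vector, with overlap. This sum joins markers that lay opposite ways, of which edgeR called 0. Itgam was lower (15.5 and 17.8 against 33.5 and 28.2 CPM), as was Adgre1 (0 and 0 against 6 and 10 counts). Cd68 was higher (27.6 and 26.9 against 12.6 and 26.2 CPM), and Csf1r, Cd14 and Lyz2 overlapped. NK markers summed to 75.7 and 88.1 CPM with the Hic1 vector and 50.2 and 61.7 CPM with the empty vector, without overlap. Of the 4 NK markers, edgeR called Klra8 higher, limma voom called 0 and DESeq2 called 0, giving no adjusted p for Klra8. Klra8 had 78 and 48 counts with the Hic1 vector and 2 and 1 counts with the empty vector. It passed the count filter only through the group where it is high. Klrb1c made up most of the sum, at 58.6 and 70.8 CPM with the Hic1 vector and 29.4 and 43.7 CPM with the empty vector. Eomes lay the other way, at 6.05 and 11.7 CPM with the Hic1 vector and 20.4 and 17.2 CPM with the empty vector, and Ncr1 was at most 0.5 CPM. CD4 T cell markers summed to 18.9 and 19.0 CPM with the Hic1 vector and 10.9 and 14.2 CPM with the empty vector. Nearly all of this was Zbtb7b (18.2 and 18.6 against 9.95 and 14.0 CPM), while Cd4 was at most 0.704 CPM and Foxp3 at most 0.485 CPM. Dendritic markers summed to 21.1 and 21.5 CPM with the Hic1 vector and 16 and 21.2 CPM with the empty vector, with Clec9a at 0. Most of this was Xcr1 (20.4 and 15.8 against 11.9 and 12.5 CPM), and Zbtb46 overlapped (0.563 and 5.70 against 3.88 and 7.50 CPM). Neutrophil markers were at most 2.43 CPM, erythroid at most 4.08 CPM, and platelet at most 2.5 CPM with Pf4 and Ppbp at 0. In bulk samples fewer cells of a type and less RNA per cell cannot be told apart, and the part of these cells in the results above was not tested.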

How the data were processed

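Whole-number read counts per gene for 4 libraries were deposited by the authors as a raw matrix, with columns named for the empty and Hic1 vectors. The build mm10 and the tools featureCounts 1.5.3, Trimmomatic 0.38, DESeq2 1.3.2 and STAR 2.5.2b are named in the submitters' processing notes. Annotation release, read layout and use of strand: not given in the sources used here. A deposited normalized matrix was not used. Counts were tested as deposited.

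Genes passed edgeR's filterByExpr (minimum count 10, minimum total 15), which kept 11676 of 55401, and were scaled by TMM. Hic1 vector over empty vector was tested with edgeR 4.0.16 (R 4.3.3), quasi-likelihood F test with robust estimation, group alone, prior count 2, Benjamini-Hochberg adjustment over all genes tested and a threshold of 0.05. A standard error is the log2 fold change divided by the root of F, and 95% intervals use the moderated degrees of freedom. The common biological coefficient of variation was 0.195. CPM uses TMM-scaled library sizes. Per-kilobase levels use the length of the union of each gene's exons in GENCODE mouse M21, over all its transcripts. Within-number differences add 0.5 CPM. Of the 32 identifiers, 30 matched that annotation by version. The same test was also run on simulated counts. The simulated libraries had no difference by replicate number, unlike these libraries, so that run does not cover this split and is not used here.

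Alternatives were limma 3.58.1 (voom), DESeq2 1.42.0, other scalings and filters, GC correction (loess, span 0.3), a replicate block and leaving out each library. The named genes were all 31, and in each other list those called, or otherwise the 3 of lowest p. The members, gene lists and markers were chosen with earlier results of these data known.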

Additional observations from a re-analysis of the deposited data

How the results depend on the processing

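Of 764 gene values compared across 17 alternatives, 721 kept their direction and their side of the threshold. The number of genes called over all genes, 213, was 321 with library sizes alone, 819 with no count filter, 422 with the DESeq2 Wald test, 121 with limma voom, 140 without robust estimation, 98 with GC correction, 794 with the replicate block, 704 with GC correction and the replicate block, and 8 to 318 with a library left out. With library sizes alone, 21.8% of calls were higher, against 39.4%. Among the 31 genes, 1 was called with no count filter (Gpi1, log2 0.51, adjusted p = 0.0207) and 1 with the replicate block (Gpi1, log2 0.45, adjusted p = 0.0341); its adjusted p ranged from 0.0207 to 0.502. The replicate numbers are not stated to pair the libraries, and same-numbered deviations correlated at 0.253 over 11676 genes. The median of the tested genes was 0.11 to 0.27 with a library left out. Hic1 lost its call with limma voom (4.68). Signs turned, in log2, for Pfkl at -0.09 under GC correction, with and without the replicate block, for Tpi1 at -0.01 under both together, for Pdk3 at -0.06 with library sizes alone and -0.01 at a minimum count of 30, and for Hif1a at 0.09 under GC correction and 0.07 with the replicate block added. With 1 library left out, values ran from -0.74 to 0.36 for Hk2, -0.04 to 0.29 for Tpi1, -1.49 to 0.21 for Eno3, -0.34 to 0.47 for Slc16a1, -0.01 to 0.28 for Pdk1, -0.20 to 0.26 for Pdk3, -0.35 to 0.15 for Hif1a, -0.34 to 0.28 for Vhl, -0.12 to 0.33 for Bnip3l and -0.69 to 0.57 for P4ha1. With a library left out, the lone library of its group is assumed to vary like the others. The cause was not tested. Ldhb, Egln3 and Bnip3 were below the count filter.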
